A study of Drosophila melanogaster with 135 samples.

Results

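The sarcomere, the contractile unit of striated muscle, is built from thick filaments of myosin that slide along thin filaments of actin. Nerve-driven calcium acts on the thin filament, where troponin and tropomyosin cover or free the sites that myosin heads bind. Of the 17023 genes listed in each table, 10 were taken by symbol for this account, 6 of the thick filament and 4 of the thin filament. Thick filament genes were Mhc (muscle myosin heavy chain), Mlc1 and Mlc2 (the muscle alkali and regulatory myosin light chains), Prm (paramyosin, and miniparamyosin from an internal promoter), Mf (myofilin, a thick filament core protein) and fln (flightin, a myosin rod-binding protein of flight muscle). Thin filament genes were up (troponin T), wupA (troponin I), Tm1 and Tm2 (tropomyosins). All 10 members were found in all 14 mRNA tables. The rule took them by symbol, but they were chosen with earlier results of these data known.

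The study asked how gene expression changes with age in fly muscle and in mutants of Polycomb Repressive Complex 2 (PRC2), which places the repressive histone mark H3K27me3. Poly(A) RNA was sequenced from pools of dissected muscles or heads of male Drosophila melanogaster in 20 groups of 3 libraries. WT was line 5905 (w1118), at 3 and 30 days in muscle, and every other group was 30 days old. Mutants carried CRISPR/Cas9 deletion alleles, as heterozygotes (esc289, E(z)239, Su(z)12253, p55192, and Pcl421 with Pcl422 or Pcl423 on the labels of other replicates) or as trans-heterozygotes (esc289; E(z)239 and Pcl421; Su(z)12253). p55 was sequenced in muscle only, and the alleles were backcrossed into 5905, so that all groups share that background. The esc, E(z), Pcl, Su(z)12 and p55 muscle groups share 1 WT control, the 4 single-mutant head groups share another, and the 30-day WT muscle group of the age comparison is also the control of Pcl Su(z)12 muscle.

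Sums of the normalized counts of a group ran from 4455811 to 11591935. In 56 of 60 pairs of libraries within a group, the median squared difference over genes was 1.25 to 2.65 times what counting alone gives. The other 4 pairs all contained 1 library of Su(z)12 heads (8.02 and 9.11 times) or 1 of p55 muscle (4.43 and 5.47 times). Each targeted gene was counted in each of the 13 mutant comparisons, with both targets of a double mutant. The target was lower in 15 of 17 cases, with log2 ratios from -1.65 to 0.17 over all 17. Many were near 0, and those of Pcl and Su(z)12 lay from -0.21 to 0.17. The limma test was passed in 3 of 17, for esc in esc muscle and heads and for p55 in p55 muscle. Over all tested genes, 1.61% to 5.61% were called in the mutant comparisons. Photoreceptor markers summed to 9.78 to 79.6 ppm (normalized counts per 1000000 of the group's sum) in muscle groups and 50973 to 61494 in head groups. Digestive enzyme markers of the gut (alphaTry, betaTry, Amy-p and Mal-A1) summed to 4804 to 11678 ppm in muscle groups, so the dissected muscle also carried gut RNA, and to 50.7 to 99.4 in heads. In bulk tissue of this kind, fewer cells of a type and less RNA per cell cannot be told apart.

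The members lie on chromosomes 2L, 3L, 3R and X of the dm6 assembly (Release 6), and 8 of 10 share no exon base with another annotated gene. Tm1 and Tm2 are neighbours on 3R (chr3R:15278220-15308779 and chr3R:15310193-15315197), where 2.86% of the exon bases of Tm1 also belong to l(3)neo43. The exception is fln (chr3L:19989551-19991220), for which 61.6% of exon bases are shared with the antisense RNA gene CR45161 on the opposite strand. The counting ignored strand and dropped reads that fit both genes, so reads lying wholly in the shared bases are not counted. The level of fln rests on its other exon bases and is uncertain.

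Since the members form the same structure, the stretch from 250 bases before to 50 bases after each annotated gene start was searched on both strands for the MEF2 consensus, the site of a transcription factor of muscle differentiation. It was present in 1 of 10 members, against 14.5% of 13968 protein-coding genes. Other promoters of a gene, such as the internal one of Prm, and sequence farther away were not searched. The match began 82 bases before the start of fln, on the minus strand. It is shown within its flanking bases (chr3L:19991283-19991312) because fln is the only member with one, and capitals mark the consensus.
fln: tttcggccaaTTAAATTTAGtatgtgagta

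Levels were compared between genes per kb of exon, as the authors' mean normalized count of a group divided by exon length. In WT muscle at 30 days, Mlc2 was highest at 5297 per kb, followed by up at 3346, Mlc1 at 2860 and wupA at 2630. Mhc stood at 2397 per kb, Mf at 1815, Prm at 1491 and Tm2 at 1202. Tm1 was at 358, with an exon length that includes its many non-muscle isoforms, and fln was last at 141. The exon length of fln includes the 61.6% of bases shared with CR45161, where reads were dropped. Its value per kb is therefore too low and its place below Tm1 is uncertain. Neighbours in this order, such as Mlc1 and wupA, were not separated by a test.

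At 3 days the order was different, with Mf first at 24274 per kb, then Mlc2 at 17873 and up at 10029. As a share of all normalized counts, the 10 members together made up 2.88% of WT muscle at 3 days and 1.04% at 30 days. In the other WT muscle groups of that age they made up 0.974% and 0.96%. Mf alone was at 11090 ppm at 3 days, where it ranked 6 among all genes, and at 1316 ppm at 30 days, where it ranked 74.

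**Figure D1:**
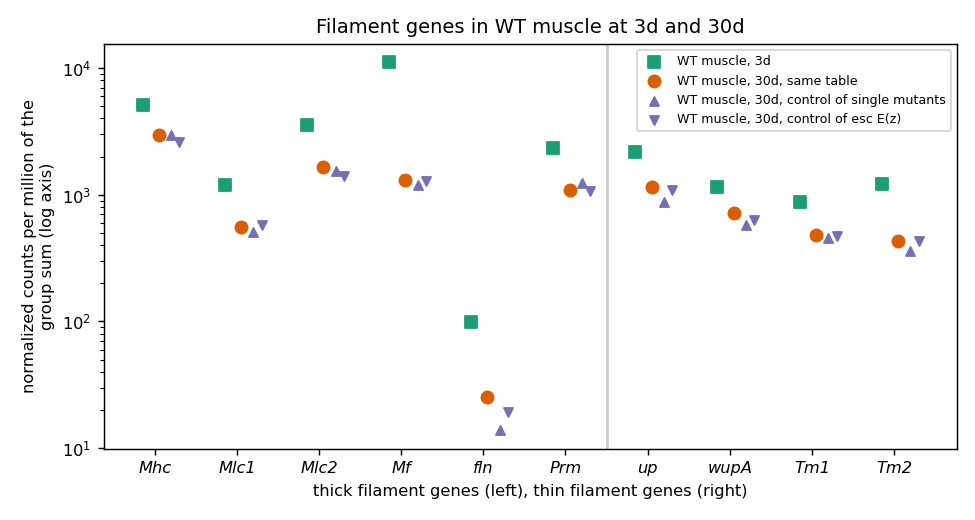
Level of each member in WT muscle, in ppm on a log axis, at 3 days (squares) and in the 3 WT groups at 30 days (circles and triangles); each symbol is a mean of 3 libraries. All 10 members are higher at 3 days than in all 3 groups at 30 days, and Mf shows the widest gap.

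All 10 filament genes were lower in WT muscle at 30 days than at 3 days by at least 1.5-fold, with a median log2 ratio of -1.75. Over all 11373 genes with a mean of at least 1, 30.1% passed 1.5-fold in either direction, 16% passed it as lower at 30 days, and the median log2 ratio was 0.02. Library values were not read from means of 1000 or more, which all 10 exceed at 3 days, so none of the 10 has a test. The typical SE of a log2 difference in this comparison, from genes with means of 600 to 1000, was 0.062. In the 30-day group only 44 of 878 such genes were read, and the spread of members with higher means was not measured. The smallest difference was that of wupA, at -1.37.

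Among thick filament genes, Mf had the largest difference, from an authors' mean normalized count of 128554 at 3 days to 9613 at 30 days, a 13.4-fold lower level (log2 ratio -3.74). Only 0.176% of genes had a lower log2 ratio. Mhc went from 58831 to 21709, a 2.71-fold lower level. The light chains differed more than the heavy chain, with Mlc1 at 13957 and 4045 (3.45-fold lower) and Mlc2 at 40857 and 12108 (3.37-fold lower). Prm was 3.37-fold lower as well, at 26883 and 7986.

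fln was listed at 1150 at 3 days, against 197, 175 and 179 in the 3 libraries at 30 days, a 6.26-fold lower mean. CR45161, which overlaps it, was also lower, at 748 and 127 (log2 ratio -2.56). Both were lower at 30 days.

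In the thin filament, Tm2 had the largest difference, from 14099 to 3141 (4.49-fold lower), and the other genes lay close together. up went from 25373 to 8465 (3-fold lower), Tm1 from 10244 to 3513 (2.92-fold lower) and wupA from 13419 to 5201 (2.58-fold lower). The 4 thin filament genes thus spanned 2.58-fold to 4.49-fold, and the 6 thick filament genes 2.71-fold to 13.4-fold.

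The sizes of these differences depend on the scaling. The sum of normalized counts was 11591935 at 3 days and 7305280 at 30 days, a log2 difference of -0.67, and mt:lrRNA alone made up 14.4% of the 3-day sum. Scaled to equal sums, the members remained lower at 30 days, by 8.43-fold for Mf, 3.95-fold for fln, 2.83-fold for Tm2, 2.17-fold for Mlc1, 2.13-fold for Mlc2, 2.12-fold for Prm, 1.89-fold for up, 1.84-fold for Tm1, 1.71-fold for Mhc and 1.63-fold for wupA. All 10 still passed 1.5-fold, and 6 of 10 passed 2-fold.

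Of the 24 other sarcomere genes, 20 were lower at 30 days by at least 1.5-fold and 2 were higher, with a median log2 ratio of -1.36. At equal sums that median was -0.70, and several of the 20, such as sls (-0.24) and Strn-Mlck (-0.54), no longer passed 1.5-fold. Only 4 of the 24 could be tested, and 3 of these fell, in a comparison where 33.6% of 9077 tested genes were called and 16.5% were called as lower. With equal sums 284 genes were called as lower instead of 1498. TpnC25D, a troponin C gene, fell from 482 to 228 (limma log2 difference -1.08 ± 0.09 SE, adjusted p = 2.12e-08). At equal sums its log2 ratio was -0.42, short of 1.5-fold. TpnC4, the calcium sensor of flight muscle stretch activation, was listed at 8424 and 320 (log2 ratio -4.72), and Act79B, a muscle actin, at 23270 and 4068 (log2 ratio -2.52). unc-45, a myosin chaperone, was in the other direction, at 540 and 1499 (log2 ratio 1.47). So was the actin gene Act57B, at 6506 and 11216 (log2 ratio 0.79).

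The nonmuscle relatives were near or above their 3-day level. zip, the nonmuscle myosin heavy chain, had a log2 ratio of 0.04, its light chains sqh and Mlc-c had 0.07 and 0.11, and the cytoplasmic actins Act5C and Act42A had 0.29 and 0.06, to which equal sums would add the same 0.67 as for the members. Their summed level was 814 ppm at 3 days and 1486 at 30 days. The limma test was possible for Mlc-c (adjusted p = 0.198) and Act42A (adjusted p = 0.689).

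Markers of other cell types were measured beside these values. All 5 neuron markers were lower at 30 days, with a median log2 ratio of -0.64, and elav (-0.41 ± 0.08 SE, limma, adjusted p = 0.00032) and Syx1A (-0.37 ± 0.09 SE, adjusted p = 0.0023) fell, as did the hemocyte marker eater (-0.40 ± 0.12 SE, adjusted p = 0.0127). These directions hold only for the deposited scaling: at equal sums the log2 ratios were 0.26 for elav, 0.29 for Syx1A and 0.26 for eater, and the neuron median was 0.02. By share, gut markers were at 4804 ppm at 3 days and 8045 at 30 days, fat body markers at 4324 and 8178, and neuron markers at 689 and 633. On the deposited scale the median log2 ratio was 0.06 for the 4 gut markers, 0.2 for the 4 fat body markers matched, 0.11 for the 4 hemocyte markers, -0.08 for the 3 glia markers, 0.34 for the 6 photoreceptor markers and 0.26 for the 3 male germ line markers with a mean of at least 1. The part of the tissue's makeup in the members' differences was not tested.

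The genes whose 14 log2 ratios were nearest to those of Mhc, among 4484 other genes with a mean of at least 100 in every group, were CG17734, Tm1, Zasp52, wupA and mRpL28. Their root mean square differences from Mhc were 0.0793, 0.0817, 0.0855, 0.101 and 0.105 on the log2 scale. The age comparison dominates this measure, and several comparisons share controls. up ranked 34, Mlc2 53, Mlc1 61, Prm 182, Tm2 639 and Mf 4211 in the same order, so Mf was the member least like Mhc among those ranked.

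In muscle of the PRC2 mutants, the filament genes were close to their WT controls at 30 days. Across 10 members and 7 mutants, the 70 log2 ratios ran from -0.60 to 0.55 with a median of 0.01, and 1 of 70 passed 1.5-fold. The share of all genes past 1.5-fold was 10.7% for Pcl, 11.2% for esc E(z), 11.7% for E(z), 11.8% for esc, 12.8% for p55, 13.5% for Su(z)12 and 13.7% for Pcl Su(z)12. These shares include genes of low level, which vary more. In the WT control of the single mutants, the median SD was 0.399 on the log2 scale for means of 1 to 50. It was 0.0835 for means of 600 to 1000. The share for genes at the level of the members was not counted. The typical SE of a log2 difference was 0.057 to 0.095 in these comparisons.

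**Figure D2:**
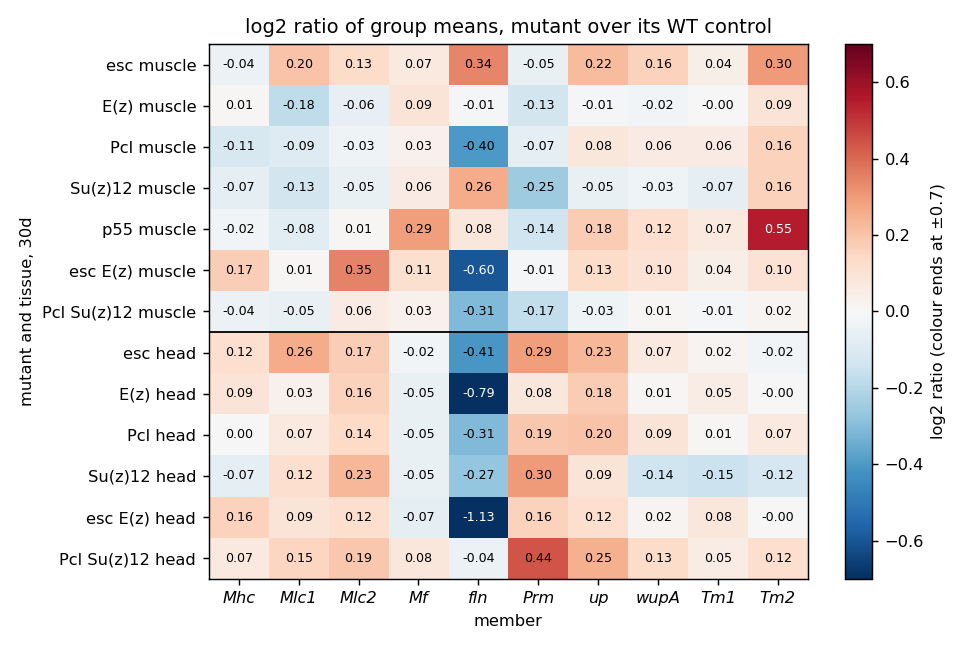
Log2 ratio of group means, mutant over its WT control, for the 10 members (columns) in 7 muscle and 6 head comparisons (rows), each from 3 against 3 libraries. The ratios run from -1.13 to 0.55, with fln lower than its control in all 6 head comparisons and Prm, Mlc1, Mlc2 and up higher.

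Several members held 1 sign across the mutants. Mf was above its control in 7 of 7 muscle comparisons, by 0.03 to 0.29, and Tm2 in 7 of 7, by 0.02 to 0.55. Prm was below its control in 7 of 7, with log2 ratios from -0.25 to -0.01, and in 6 of 7 when scaled to equal sums, where the ratio in esc E(z) was 0.02. The 5 single mutants share a control, so a deviation of that control enters all 5 ratios. As a share of its sum, it was the lowest WT muscle group at 30 days for Mf (1198 ppm against 1295 and 1316). The same held for Tm2 (362 against 429 and 430), and for Prm it was the highest (1233 against 1063 and 1093). The part of that control in the shared signs was not tested. The remaining 7 members had both signs.

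The highest muscle ratio was that of Tm2 in p55, with authors' means of 2389 against 1636 in WT. That comparison includes the library of p55 that stood apart, and its typical SE of 0.095 is the highest of the 7. Mf was also higher in p55, at 6609 against 5420 (log2 ratio 0.29). Mlc2 was at 9138 in esc E(z) against 7175 in its WT control (log2 ratio 0.35, typical SE 0.058). As a share, that control was the lowest WT muscle group at 30 days for Mlc2 (1411 ppm against 1546 and 1657), and the mutant was at 1830. The part of that control in the ratio was not tested. Prm was at 4682 in Su(z)12 muscle against 5580 (log2 ratio -0.25, typical SE 0.067).

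These ratios were set beside the spread of the 3 WT muscle groups at 30 days, taken as shares of their sums. The highest WT group exceeded the lowest by 1.06-fold for Tm1, 1.10-fold for Mf, 1.14-fold for Mhc, 1.17-fold for Mlc2 and 1.19-fold for Tm2. The gap reached 1.32-fold for up, from 876 to 1159 ppm, and 1.82-fold for fln, from 13.8 to 25.1 ppm. WT groups of different sets were normalized separately, so this spread can hold differences between sets as well as those between flies.

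fln was the only member whose library values were read in all 30-day muscle groups, and it fell in 1 of 7 mutants. In esc E(z) muscle its normalized counts were 62.1, 61.0 and 71.9, against 84.8, 114 and 96.1 in the WT control. As a share of the sum, fln was at 13 ppm in the mutant and 19.3 in its control. The other WT muscle groups at 30 days were at 13.8 and 25.1 ppm. The log2 difference was -0.58 ± 0.14 SE (limma, adjusted p = 0.0264). The call was lost when any of 4 of the 6 libraries was left out (adjusted p from 0.0531 to 0.121). In that comparison 4.06% of tested genes were called. CR45161 was lower too, at 60.3 against 83.5 (log2 ratio -0.47). Photoreceptor markers summed to 79.6 ppm in this control and 23 in the mutant, and their part in the result was not tested.

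fln did not pass the test in the other 6 muscle comparisons. In the single-mutant set, WT libraries had 72.5, 47.7 and 67.3. Those of Pcl had 39.5, 46.8 and 55.6 (log2 difference -0.39 ± 0.19 SE, limma, adjusted p = 0.369). Those of esc had 69.2, 89.1 and 78.8 (0.35 ± 0.16 SE, adjusted p = 0.321). Both groups overlapped the WT libraries.

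Libraries of Su(z)12 had 84.0, 82.4 and 57.4 (log2 difference 0.25 ± 0.18 SE, limma, adjusted p = 0.547), those of E(z) 46.9, 63.1 and 76.0 (adjusted p = 0.98) and those of p55 60.3, 76.8 and 61.2 (adjusted p = 0.894). In Pcl Su(z)12 muscle they were 162, 165 and 117 against 197, 175 and 179 in WT (-0.32 ± 0.12 SE, adjusted p = 0.213). The share of tested genes called was 1.61% for p55, 2.63% for Pcl, 2.74% for E(z), 3.4% for esc, 3.67% for Pcl Su(z)12 and 5.61% for Su(z)12.

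**Figure D3:**
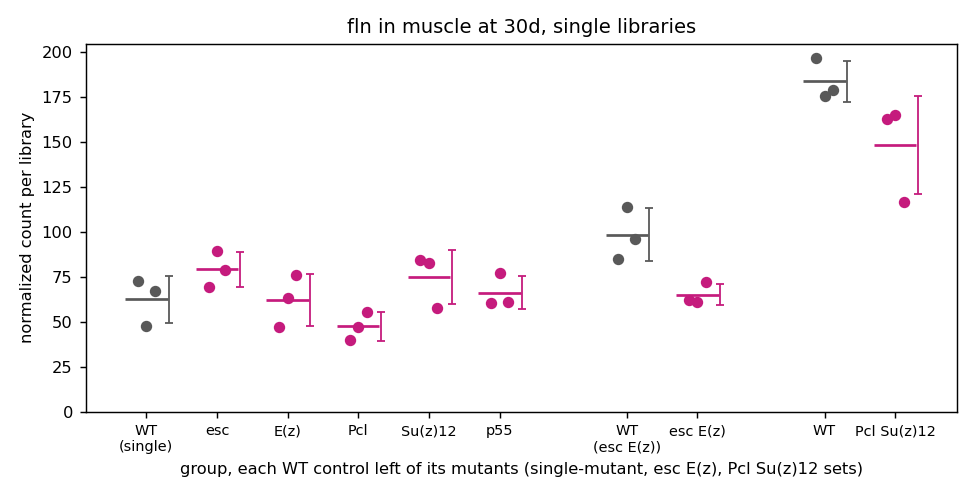
Normalized count of fln in each library (points) of WT (grey) and mutant (magenta) muscle at 30 days, with the mean (line) and SD of 3 libraries (bar at the side). The esc E(z) libraries lie between 61.0 and 71.9, and the 3 of their WT control between 84.8 and 114. Libraries of the single mutants overlap those of their control.

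TpnC4 was the most often called of the 24 other sarcomere genes in mutant muscle. It rose in 5 of the 6 comparisons in which it was tested by limma, from 1.07 ± 0.20 SE on the log2 scale in Pcl Su(z)12 (adjusted p = 0.00666) to 2.75 ± 0.20 SE in Su(z)12 (adjusted p = 2.18e-08). Its mean was 54.1 in the WT control of the single mutants and 354 in Su(z)12 muscle, and 362 in esc muscle, where it had no test. As a share, that WT control was at 12 ppm and the other WT muscle groups at 42.7 and 43.8, a 3.67-fold spread, and the called groups E(z) at 33.2 and p55 at 41 did not exceed those WT groups. Called groups above all 3 were Su(z)12 at 77.4, Pcl Su(z)12 at 92.9 and esc E(z) at 103. The list as a whole had 6 calls upward and 0 downward in 40 tests in mutant muscle, with medians from -0.10 to 0.09. Of these 6 calls, 5 were those of TpnC4. Over all tested genes, 1.61% to 5.61% were called in the muscle comparisons. Of the nonmuscle relatives, sqh rose in Pcl muscle (0.34 ± 0.07 SE, adjusted p = 0.0149).

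Heads contain muscles of the mouthparts, antennae and neck, and all 10 members were detected there. Together they made up 0.208% to 0.227% of normalized counts in the 3 WT head groups, 4.41-fold to 4.68-fold below the matching WT muscle groups. Prm was 11.6-fold to 15.1-fold lower in heads than in muscle and Mlc1 10-fold to 10.6-fold. Mhc was 3.02-fold to 3.75-fold lower, Mf 3.12-fold to 3.56-fold and Tm2 3.44-fold to 4.27-fold. Tm1, which also encodes cytoplasmic tropomyosins, differed least, by 2.13-fold to 2.41-fold. The tissues stand in separate tables, so these ratios of shares were not tested.

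**Figure D4:**
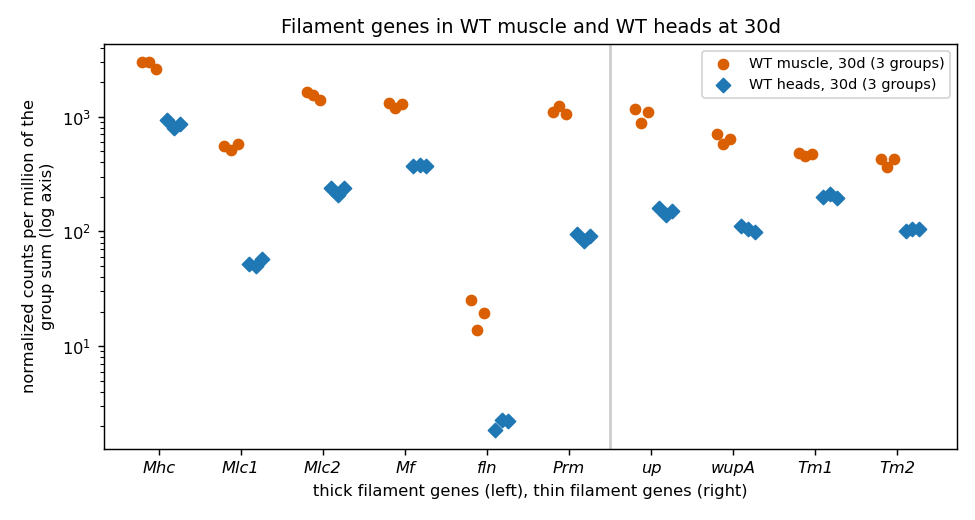
Level of each member at 30 days in 3 WT muscle groups (circles) and 3 WT head groups (diamonds), in ppm on a log axis; each symbol is a mean of 3 libraries. All members are higher in all 3 muscle groups, with the widest gaps for Prm, Mlc1 and fln and the narrowest for Tm1.

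Per kb of exon, Mlc2 led in WT heads at 441, with Mhc at 430, Mf at 355 and up at 270 in the control of the single mutants. wupA was at 263, Tm2 at 197, Mlc1 at 173, Tm1 at 106 and Prm at 74.9, and fln was last at 8.5. Mlc2, Mhc, Mf, up and wupA held the same places in all 3 WT head groups. Prm and Mlc1, which ranked 7 and 3 in WT muscle of the age set, ranked 9 and 7 in its head counterpart.

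In heads of the mutants, paramyosin was called by limma in both a single and a double mutant. Prm was higher than its WT control in 6 of 6 comparisons, by 0.08 to 0.44 on the log2 scale, and rose by limma in 2 of 6. Mlc2, up and Mlc1 were also above their controls in 6 of 6, by 0.12 to 0.23, 0.09 to 0.25 and 0.03 to 0.26. fln was below in 6 of 6, at means of 5.99 to 13.7 counts. Of the 6 comparisons, 4 share a WT control, which as a share of its sum was the lowest of the 3 WT head groups for Prm (81.9 ppm against 91.5 and 94.2), Mlc2 (206 against 239 and 241), up (139 against 152 and 159) and Mlc1 (49.9 against 52.4 and 57.6), and the highest for fln (2.25 against 1.84 and 2.22). The part of that control in the shared signs was not tested. Over all 60 log2 ratios the median was 0.08, and 2 of 60 passed 1.5-fold, both of fln. The share of all genes past 1.5-fold was 13.4% for Su(z)12, 12.2% for either double mutant, 11.2% for Pcl, 11% for E(z) and 10.5% for esc. As in muscle, these shares include genes of low level, which vary more.

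Prm had its largest difference in Pcl Su(z)12 heads. Its libraries read 917, 883 and 1058 in the mutant, against 706, 693 and 707 in WT. The log2 difference was 0.44 ± 0.07 SE (limma, adjusted p = 0.00216), in a comparison where 3.06% of tested genes were called. In muscle of the same genotype Prm was at 7121 against 7986 (log2 ratio -0.17), and no test of the tissue difference could be made there.

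In esc heads Prm libraries read 460, 467 and 543, against 404, 415 and 384 in the shared WT control. The log2 difference was 0.29 ± 0.07 SE (limma, adjusted p = 0.0204), where 3.05% of tested genes were called. With the libraries numbered in the order given, this call was lost without library 3 of esc (adjusted p = 0.193) or library 1 (0.0856) or 3 (0.0912) of WT, and with 1 spread shared by the 5 groups of the set (0.28).

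The other single mutants were compared with the same control. Pcl heads read 412, 476 and 485 (0.19 ± 0.07 SE, limma, adjusted p = 0.179) and E(z) heads 411, 424 and 442 (0.08 ± 0.07 SE, adjusted p = 0.667). Su(z)12 heads read 394, 513 and 569 (0.28 ± 0.13 SE, adjusted p = 0.317), and the lowest value came from the library that stood apart. Without that library the difference was 0.43 ± 0.08 SE (adjusted p = 0.00077). Leaving out mutant library 2 or 3 instead gave 0.24 ± 0.15 SE and 0.17 ± 0.13 SE (limma, adjusted p = 0.442 and 0.569). Without 1 of the WT libraries the adjusted p was 0.477 to 0.543. Neuron markers summed to 2440 ppm in Su(z)12 heads and 3030 in the control, and their part in the result was not tested.

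In esc E(z) heads Prm read 566, 608 and 646, against 570, 522 and 534 in WT. The groups overlapped at 566 and 570, and the log2 difference of 0.16 ± 0.07 SE did not pass the test (limma, adjusted p = 0.249). The share of tested genes called was 4.59% here, 4.44% for Pcl, 2.94% for Su(z)12 and 2.92% for E(z).

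**Figure D5:**
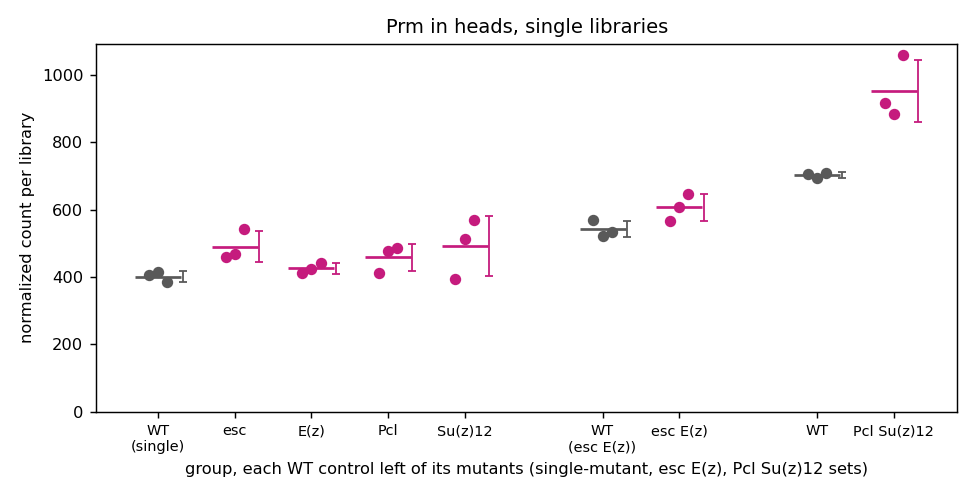
Normalized count of Prm in each library (points) of WT (grey) and mutant (magenta) heads at 30 days, with the mean (line) and SD of 3 libraries (bar at the side). The Pcl Su(z)12 libraries lie between 883 and 1058, and the 3 of their WT control between 693 and 707. The lowest Su(z)12 library, at 394, lies inside the range of its WT control.

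Mlc1 did not pass the test in any of the 6 head comparisons, and 1 of 6, that of esc, had an unadjusted p below 0.05. In esc heads 1098 of all 8687 tested genes had one. In esc heads Mlc1 read 299, 272 and 309, against 225, 262 and 247 (0.26 ± 0.08 SE, limma, adjusted p = 0.104). In Pcl Su(z)12 heads it read 419, 452 and 429, against 401, 382 and 388 (0.15 ± 0.07 SE, adjusted p = 0.383). Its adjusted p in the other 4 lay between 0.652 and 0.926.

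Troponin T was readable in 5 of 6 head comparisons only with a narrower range of allowed splits between libraries, a choice made after seeing the data that favours small spreads. With it, up rose in esc heads (763, 811 and 835 against 687, 669 and 694; 0.23 ± 0.06 SE, limma, adjusted p = 0.0201; 3.23% of tested genes called). It also rose in Pcl heads (762, 817 and 777 against the same control; 0.20 ± 0.06 SE, adjusted p = 0.0357; 5.71% called). In E(z) heads it was 0.18 ± 0.06 SE (adjusted p = 0.112), in esc E(z) heads 0.12 ± 0.07 SE (adjusted p = 0.43) and in Su(z)12 heads 0.09 ± 0.10 SE (adjusted p = 0.702).

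The other thin filament genes stayed near their controls in heads. wupA in Pcl Su(z)12 heads read 876, 874 and 969 against 873, 787 and 823 (0.13 ± 0.07 SE, limma, adjusted p = 0.432). Tm2 read 804, 819 and 816 against 787, 696 and 769 (0.12 ± 0.07 SE, adjusted p = 0.492). In esc E(z) heads both were within 0.02 of WT (adjusted p = 0.937 for wupA and 0.993 for Tm2). Tm1 had log2 ratios from -0.15 to 0.08 and no test.

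Mhc, Mlc2 and Mf have no library values in heads, since their means were 1000 or more. Mlc2 was at 1131 in esc, 1125 in E(z), 1109 in Pcl and 1185 in Su(z)12 heads against 1008 in their shared control. It was at 1551 in esc E(z) against 1429, and at 2031 in Pcl Su(z)12 against 1784. Mhc ran from -0.07 to 0.16 and Mf from -0.07 to 0.08. The 3 WT head groups themselves differed by up to 1.17-fold for Mlc2, 1.19-fold for Mhc and 1.04-fold for Mf.

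fln in heads was near the lower end of what these libraries resolve. Its libraries in esc E(z) heads read 8.06, 3.27 and 6.65, from 8, 3 and 6 reads, against 15.1, 7.09 and 17.2 in WT. The groups overlapped, the log2 ratio of the means was -1.13, and the difference did not pass the test (limma, adjusted p = 0.22). In E(z) heads it read 4.39, 9.98 and 4.81 against 11.7, 7.85 and 13.6 (-0.75 ± 0.40 SE, adjusted p = 0.432). A test of the interaction detected no difference in the mutant effect on fln between muscle and heads in any of 6 genotypes (limma, adjusted p from 0.632 to 0.997). The effect in muscle minus that in heads ran from -0.291 to 0.735 on the log2 scale. With so few reads in heads, the test could not show that the effects were equal.

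Of the 24 other sarcomere genes, 7 calls in 73 tests in mutant heads were upward and 0 downward. Over all tested genes, 2.92% to 4.59% were called in these comparisons, and the medians of the list ran from 0.01 to 0.08. The tests repeat the same genes over comparisons that partly share a control. TpnC25D rose in esc heads (416 to 571; 0.46 ± 0.07 SE, limma, adjusted p = 0.000169), where its WT control was at 84.9 ppm and the other WT head groups at 116 and 129. unc-45 rose in Pcl heads (189 to 274; 0.54 ± 0.10 SE, adjusted p = 0.000726) and E(z) heads (0.49 ± 0.11 SE, adjusted p = 0.00949). Act79B rose in Pcl Su(z)12 heads (304 to 575; 0.91 ± 0.10 SE, adjusted p = 5.14e-05) and Su(z)12 heads (0.58 ± 0.12 SE, adjusted p = 0.0164).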

How the data were processed

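The authors aligned single-end poly(A) reads to dm6 with STAR, counted them per gene with HTSeq without regard to strand, and normalized counts by DESeq size factors. Each of the 14 mRNA tables deposited holds 1 signal per gene and group, the average of the normalized counts over 3 libraries. The annotation version is not given in the sources used here. Columns of the authors' own fold changes and p-values were not used, nor were 2 small RNA tables.

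Means carry 10 digits. The size factors of the 3 libraries of a group (0.7274 to 1.5453) were read from the commonest low values, and the whole counts behind a mean followed where only 1 combination, each library within 0.2 to 2.6 times the mean, gave its digits (any split below a mean of 20, none tried from 1000 up). Of 184072 group means from 1 to 600, 98.6% had 1 combination. Libraries are numbered by size factor, not by label. This reading and the limma step were tested on simulated data.

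limma 3.58.1 (R 4.3.3) with a mean-variance trend compared log2(normalized count + 1), 3 against 3 libraries, two-sided, for genes with a mean of at least 1 and 1 combination in both groups, with Benjamini-Hochberg adjustment over all genes tested and calls at an adjusted p below 0.05. Log2 differences on this scale understate changes of low genes. Members without library values got the ratio of group means and no test, read against 1.5-fold. The typical SE comes from the median SD of genes with means of 600 to 1000, or of the next lower class read. Exon lengths and positions came from the Ensembl annotation and RefSeq sequence of Release 6; wupA was matched by symbol, since its identifier changed. One fat body marker, FASN1, was not matched.

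All members were named. Other sarcomere genes were counted as a list, and those called in the most comparisons were named. Members and lists were chosen with earlier results of these data known. Alternatives covered thresholds, pseudocounts of 0.1 and 10, a mean of at least 10, median centring, equal sums, a shared spread and leaving out each library. The labels do not say whether libraries of a group came from separate collections of flies, so p-values measure the spread between these libraries only.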

Additional observations from a re-analysis of the deposited data

How the results depend on the processing

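All 10 members stayed lower with age by 1.5-fold under both pseudocounts, the filter, median centring and equal sums; at equal sums and 2-fold together, chosen after seeing the data, 6 of 10 passed. Thresholds on p, a shared spread and left-out libraries could not be run there, since no member had library values at 3 days. In mutant muscle the single call of 7 tests became 3 at an unadjusted p below 0.05 and 0 with a 1.5-fold minimum, and left-out libraries gave 0 to 1: the fln call in esc E(z) was lost without mutant library 1 or 2 or WT library 2 or 3, with log2 differences from -0.68 to -0.47 and adjusted p up to 0.121. In heads the 2 calls of 22 tests became 7 at an unadjusted p, 0 with a 1.5-fold minimum, 1 with a shared spread and 4 of 35 with the narrower window, and left-out libraries gave 1 to 3. Over all tested genes, an unadjusted p below 0.05 was reached by 1198 of 9796 in p55 muscle, the lowest share in muscle. The highest was 1715 of 9873 in Su(z)12 muscle. In heads the lowest was 1098 of 8687 in esc and the highest 1469 of 9196 in esc E(z). Prm in Pcl Su(z)12 heads kept its call under every alternative run except the 1.5-fold minimum, with log2 differences from 0.36 to 0.49 across left-out libraries.

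Leaving out 1 library changed the sign of differences that had not passed the test: fln in E(z) muscle (-0.20 to 0.17), p55 muscle (-0.09 to 0.21), Pcl heads (-0.63 to 0.08) and Pcl Su(z)12 heads (-0.25 to 0.11), Mlc1 in E(z) heads (-0.04 to 0.08) and esc E(z) heads (-0.03 to 0.17), and wupA (-0.03 to 0.09) and Tm2 (-0.05 to 0.04) in esc E(z) heads. No paired analysis was possible because the tables give group means, and the library values read from them carry no replicate number. Highly expressed members have no library values in muscle, which limits what can be tested there.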
